A study of Homo sapiens with 9 samples.

Results

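Tumours of Huh-7 cells that had received an adenovirus carrying HNF4A with the K458R change were compared with tumours that had received an adenovirus carrying green fluorescent protein, over all genes of the deposited expression table. The comparison used 6 of the 9 libraries of the study, 3 in the Ad-K458R group and 3 in the Ad-GFP group. Groups were taken from the sample titles, except for Ad-K458R replicate 3, whose title spells the vector with an extra letter and whose description names K458R. The treatment field of replicates 2 and 3 of both HNF4A vectors gives other numbers inside the vector's name and was not used. The 3 remaining libraries came from tumours given Ad-HNF4A, the unchanged factor. They entered the fit and a direct comparison of the vectors. Huh-7 is a human hepatocellular carcinoma cell line, labelled wild type in genotype in all groups. It was grown under the skin of NOD/SCID mice, which lack functional T and B lymphocytes but retain myeloid cells. Virus went into the tumours themselves at intervals of 4 days over 8 days, once a tumour had reached about 100 mm3, in the Ad-GFP group as in the others. K458R denotes lysine replaced by arginine, and the series asks what this change in HNF4A does in hepatocellular carcinoma. Within a group the tumours carry numbers, and nothing says that each came from its own animal. The p-values therefore measure the spread between libraries only, which may be technical. The sources used here do not give the promoter that drives HNF4A in the vector, the share of tumour cells that took up virus or the dose.

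HNF4A is a nuclear receptor that binds DNA as a homodimer and holds many genes of the differentiated hepatocyte active, among them genes of apolipoproteins, bile acid and drug metabolism, glucose output and amino acid breakdown. It is also expressed in the epithelium of the gut, the kidney tubule and the pancreas, and genes of those epithelia are among its known targets. Its loss or weak expression is known from dedifferentiated liver cancer. Huh-7 cells keep many hepatocyte genes and the fetal liver gene AFP.

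Messenger RNA counts summed to 18529618 to 23171796 per Ad-GFP library and 17715527 to 22136627 per Ad-K458R library. Levels are given as CPM, counts scaled to a common library total with TMM factors, and always in the order of replicates 1, 2 and 3. In the Ad-GFP libraries HNF4A mRNA (ENSG00000101076, chromosome 20, 44355700 to 44434596) stood at 154, 169.6 and 183 CPM. In the Ad-K458R libraries it stood at 5412, 4999 and 5489 CPM. Every Ad-K458R library lay far above every Ad-GFP library, as the labels have it, and the log2 fold change was 4.97 ± 0.18 (SE, n = 3 and 3, adjusted p = 4.1e-06, edgeR). Reads of the vector's copy and of the cell's own gene cannot be told apart in this table. HNF4A-AS1, an antisense gene lying within HNF4A on the other strand (44372746 to 44395706), went from 0.84, 0.544 and 0.242 to 5.06, 4.24 and 4.46 CPM. Its libraries did not overlap between the groups either, but the labels record no strand-specific step, so its reads and those of HNF4A cannot be told apart.

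Of 16697 genes tested, 555 were higher with Ad-K458R (3.32%) and 39 were lower (0.234%). Calls rest on an adjusted p under 0.05, whatever the fold. Of the higher genes 332 (1.99% of those tested) and of the lower genes 4 (0.024%) were called again in each of the 6 fits that left out 1 Ad-GFP or Ad-K458R library. Such genes are called stable here. The groups' libraries did not overlap in any of the 594 called genes, while over all tested genes the Ad-K458R libraries lay wholly above the Ad-GFP libraries in 13.2% and wholly below them in 10.6%. Lack of overlap in a called gene, where given below, describes it and adds no support to its call. The median log2 change over all tested genes was -0.00. The higher genes split by their starting level. In 218 of them the mean was under 1 CPM with Ad-GFP, 25 of these without any control count, and in 337 it was at least 1 CPM, where the median log2 change was 0.77. A rise of at least 8-fold was fitted for 137 of the higher genes, whereas 4 of the 39 lower genes changed at least 2-fold. Without Ad-GFP replicates 1, 2 and 3 the lower genes numbered 10, 10 and 20, and without Ad-K458R replicates 1, 2 and 3 they numbered 14, 19 and 16. The higher genes then numbered 374 to 423. Together the 555 higher genes held 12264 to 12601 CPM of each Ad-GFP library and 23711 to 24750 CPM of each Ad-K458R library, and with HNF4A set aside 12094 to 12418 and 18319 to 19339 CPM.

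**Figure D1:**
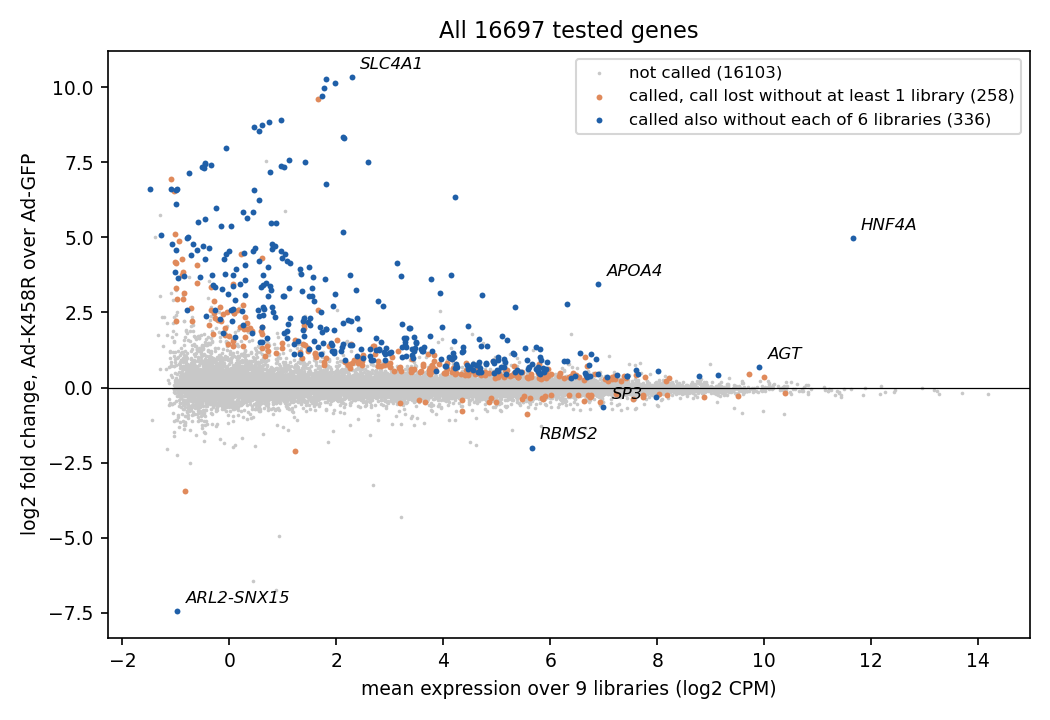
Each point is 1 of the 16697 tested genes, with its mean expression over 9 libraries (log2 CPM) on the x axis and its log2 fold change, Ad-K458R over Ad-GFP, on the y axis. The 336 stable genes (blue) lie above 0 with 4 exceptions, the largest changes are at the low end of expression, and HNF4A stands alone at the upper right.

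Among stable genes already expressed with Ad-GFP (at least 1 CPM), the largest fold changes after HNF4A belonged to genes of several tissues. GAL, which encodes the neuropeptide galanin, went from 2.03, 1.74 and 2.03 to 28.7, 23.8 and 26.8 CPM (log2 change 3.76 ± 0.13, adjusted p = 2.2e-07). COL7A1, the collagen of epidermal anchoring fibrils, went from 1.06, 1.47 and 0.918 to 13.8, 14.5 and 16.5 CPM (log2 change 3.70 ± 0.17, adjusted p = 9.9e-07). SEC14L2, a lipid-binding protein that carries tocopherol, went from 1.68, 1.63 and 1.74 to 19.7, 18.8 and 24.4 CPM (log2 change 3.63 ± 0.15, adjusted p = 5.6e-07). In these 3 genes the replicates of each group lay close together and the lowest Ad-K458R library stood several times above the highest Ad-GFP library. APOA4, an apolipoprotein of gut chylomicrons and of liver, went from 21.5, 16 and 18.1 to 208, 209.9 and 189 CPM (log2 change 3.44 ± 0.15, adjusted p = 1.6e-06). HPD, which degrades tyrosine in the liver, went from 5.35, 4.08 and 4.88 to 42.9, 37.3 and 42.3 CPM (log2 change 3.09 ± 0.12, adjusted p = 4.0e-07). Both are genes of hepatocytes, and in both the groups were widely separated in every library. EFHD1, a calcium-binding mitochondrial protein, CA5A, the mitochondrial carbonic anhydrase of liver, and ACSL5, which activates long-chain fatty acids, had log2 changes of 3.15 ± 0.23, 2.87 ± 0.18 and 2.78 ± 0.16. The water and glycerol channel AQP3, the pattern receptor TLR2 and the peptide transporter SLC15A1 of gut and kidney had log2 changes of 2.69 ± 0.18, 2.71 ± 0.18 and 2.30 ± 0.24. PGLYRP2, a secreted liver amidase that cleaves bacterial peptidoglycan, DNAH17, a dynein heavy chain, and STAT6, which transmits interleukin-4 signals, completed the 15 with 2.24 ± 0.22, 2.21 ± 0.20 and 2.15 ± 0.22. Of the 15, none overlapped between the groups, which held for every called gene.

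**Figure D2:**
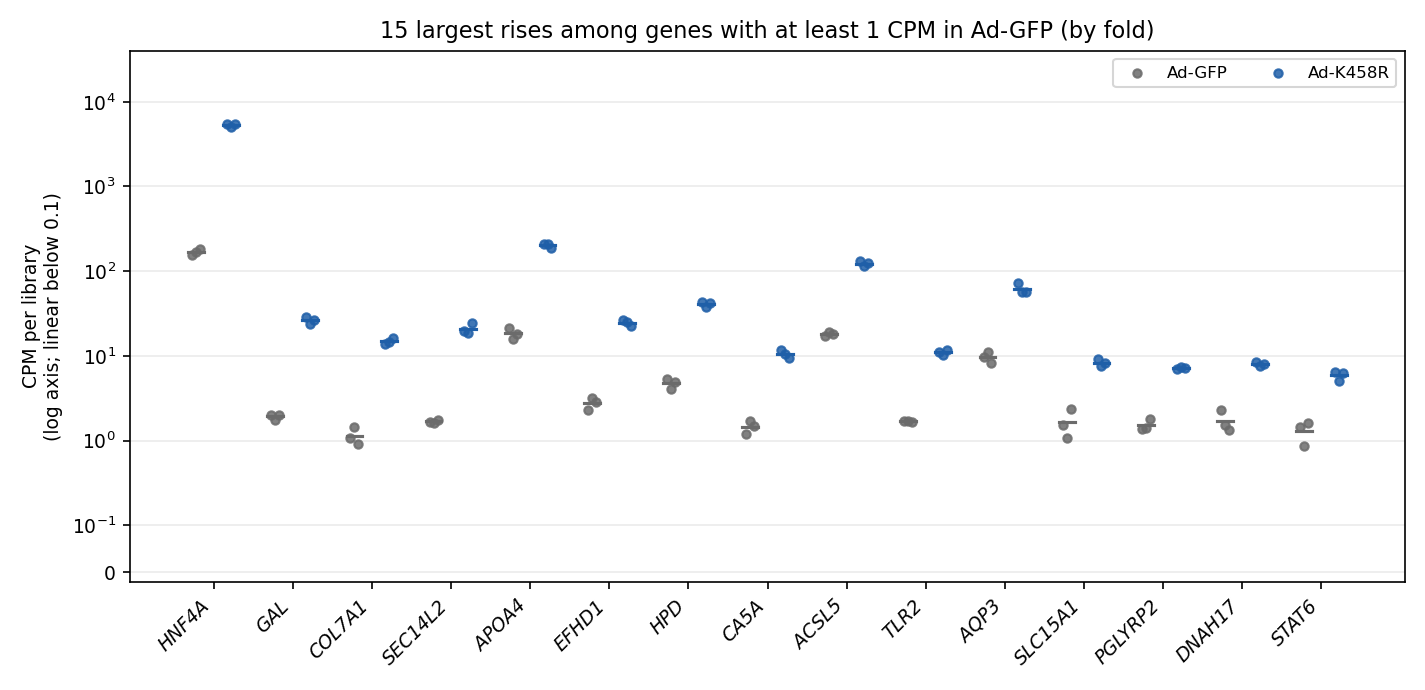
CPM in each library (points, log axis) and group means (bars) of the 15 stable genes with the largest fold change among those with at least 1 CPM in Ad-GFP. The 3 Ad-K458R libraries lie above the 3 Ad-GFP libraries for each gene, with HNF4A at 154 to 183 CPM against 4999 to 5489 CPM.

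Besides HNF4A and APOA4, given above, the largest gains in CPM included those of genes that were abundant from the start and changed by smaller factors. AGT, angiotensinogen, the liver's precursor of angiotensin, went from 711, 678 and 675 to 1145, 1145 and 994 CPM (log2 change 0.67 ± 0.08, adjusted p = 5.6e-04). DHCR7, the last enzyme of cholesterol synthesis, went from 471, 437 and 431 to 558, 626 and 621 CPM (log2 change 0.43 ± 0.06, adjusted p = 0.0025). In both genes the Ad-K458R libraries all stood above the Ad-GFP libraries although the changes were small. For scale, the median SD of log2 CPM between replicates was 0.113 with Ad-GFP and 0.104 with Ad-K458R. The lysosomal cathepsins CTSB and CTSZ went from 204 to 297 and from 148 to 222 CPM on average (log2 changes 0.54 ± 0.05 and 0.59 ± 0.06). AKAP12, a scaffold for protein kinase A, had an uneven control group, at 72.3, 75.4 and 101.4 CPM against 168, 148 and 160.3 CPM, and a log2 change of 0.93 ± 0.15 (adjusted p = 0.0074).

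Genes close to silence in the control tumours form the other end of the response. SLC4A1, which swaps chloride for bicarbonate in erythrocytes and in the kidney collecting duct, had no count in any Ad-GFP library and 9.29, 7.67 and 8.14 CPM with Ad-K458R, at least 174-fold higher taking 3 counts over the control libraries as the floor (adjusted p = 1.8e-05, edgeR). CEACAM20, an adhesion molecule of the gut brush border, had none and 8.08, 8.35 and 7.7 CPM, at least 168-fold higher (adjusted p = 1.6e-05). NR1I3, the drug-sensing nuclear receptor CAR, had none and 7.36, 6.5 and 7.98 CPM, at least 152-fold higher (adjusted p = 8.9e-06). All 3 Ad-K458R libraries showed each of these mRNAs at a similar level while all 3 control libraries showed none. MOGAT2, which makes diacylglycerol in the gut, had 3 counts over the control libraries and 11.4, 9.34 and 9.31 CPM with Ad-K458R, a ratio of counts of 209 (exact 95% interval 71.2 to 1018). CYP1A2, the hepatic cytochrome P450 that oxidises caffeine, had 1 control count and 7.25, 6.18 and 8.25 CPM, a ratio of 451 (exact 95% interval 80.4 to 17839). BIN2, a membrane-bending protein of blood cells, had 1 control count and 7.25, 7.81 and 7.2 CPM, a ratio of 469 (exact 95% interval 83.7 to 18564). These intervals and floors cover counting error only. CYP11A1, which makes pregnenolone from cholesterol, went from 0.133, 0.272 and 0.145 to 7.2, 6.95 and 5.8 CPM, and SLC1A2, a glutamate transporter of astrocytes and liver, from 3 counts, all in replicate 2, to 6.49, 4.92 and 6.69 CPM. SMPD3, a neutral sphingomyelinase, went from 0.751, 0.816 and 0.918 to 15.8, 14.1 and 14.7 CPM (log2 change 4.16 ± 0.15, adjusted p = 2.2e-07). In SMPD3 the Ad-GFP libraries were even and the lowest Ad-K458R library was many times the highest of them. C11orf86 went from 0.309, 0 and 0.918 to 38.1, 33.3 and 32.5 CPM. Its control libraries were uneven, with replicate 2 at no count, and the groups remained far apart. COL17A1, the hemidesmosomal collagen, ICAM5, an adhesion molecule of neurons, SEMA3G, a secreted semaphorin, and CRIP1, a small LIM protein, had log2 changes of 3.76 ± 0.31, 3.26 ± 0.30, 3.11 ± 0.23 and 3.61 ± 0.30. TUBA3D, without control counts, stood at 6.38, 6.86 and 6.53 CPM. It is uncertain because TUBA3D has near-identical copies such as TUBA3E between which reads can be split.

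**Figure D3:**
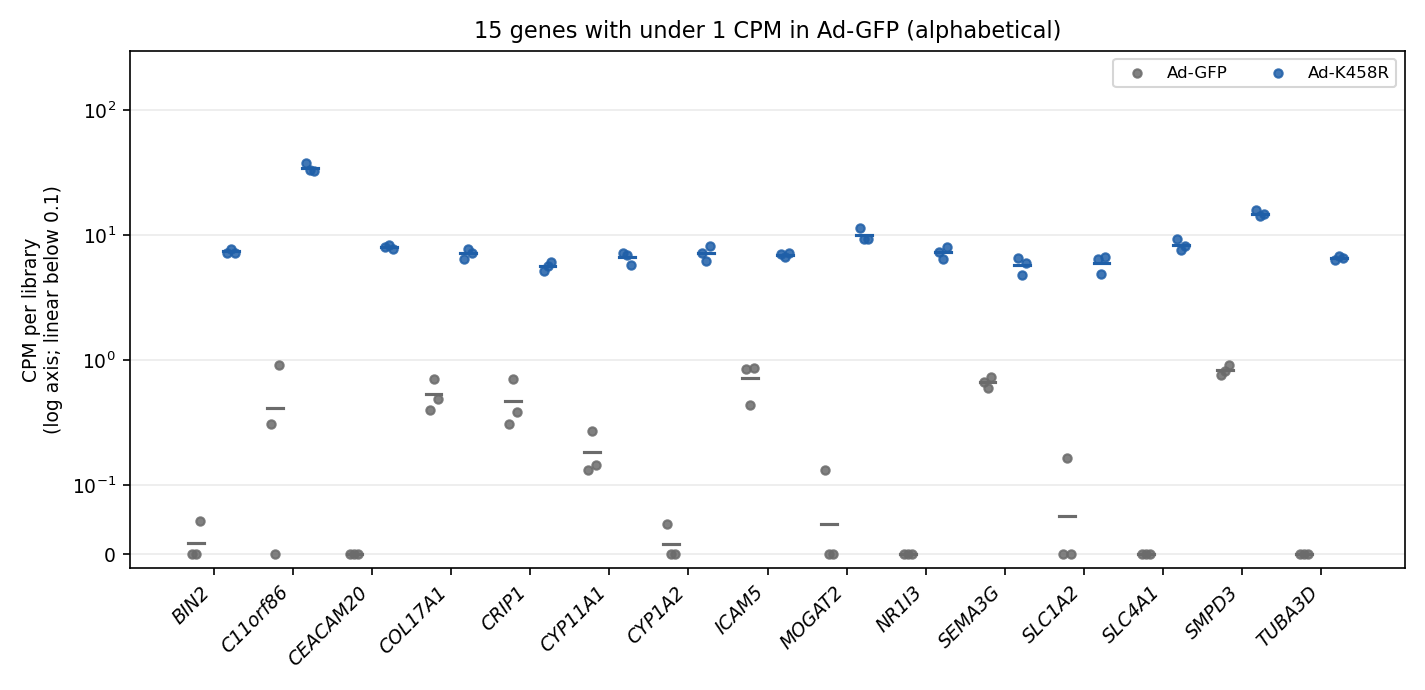
CPM in each library (points; log axis above 0.1, linear below) and group means (bars) of 15 stable genes with under 1 CPM in Ad-GFP, chosen for their CPM with Ad-K458R. SLC4A1, CEACAM20, NR1I3 and TUBA3D lie at 0 in all 3 Ad-GFP libraries and between 6.38 and 9.29 CPM in the Ad-K458R libraries.

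Gene lists were read by how many of their tested members were called, beside the 3.32% higher and 0.234% lower among all tested genes. Unadjusted counts given for lists stand beside 1523 higher and 818 lower of the 16697 tested genes at an unadjusted p under 0.05 (edgeR). Of 22 tested liver transcription factors, 2 were higher (9.09%) and 2 lower, 1 of them stable, and the list's median log2 change was -0.07. CREB3L3, a membrane-bound factor that drives fasting lipid genes, was the stable member, at 69, 58.7 and 65.3 CPM with Ad-GFP and 141, 146 and 133 CPM with Ad-K458R (log2 change 1.12 ± 0.10, adjusted p = 7.8e-05). All its Ad-K458R libraries were about double every control library. ONECUT2 and TBX3 were the lower members, with log2 changes of -0.27 ± 0.06 and -0.28 ± 0.07. The call of ONECUT2 was lost without Ad-GFP replicate 2 or 3 or Ad-K458R replicate 1, 2 or 3 (adjusted p = 0.092 to 0.14). That of TBX3 was lost without any 1 of the 6 libraries (adjusted p = 0.06 to 0.18). Of 30 tested nuclear receptors 3 were higher and none was lower. NR1I3 was the stable one. NR0B2, the bile-acid-induced repressor SHP, and RARA, a retinoic acid receptor, had log2 changes of 1.39 ± 0.29 and 0.54 ± 0.10. The call of NR0B2 was lost without Ad-GFP replicate 3 or Ad-K458R replicate 1, 2 or 3 (adjusted p = 0.055 to 0.09). That of RARA was lost without Ad-K458R replicate 1 or 2 (adjusted p = 0.05002 to 0.051).

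Lipid handling supplied 3 lists with more higher members than the 3.32% of all genes. Triglyceride synthesis and lipid droplets had 5 of 23 tested members higher (21.7%, median log2 change 0.20), 4 of them stable. CIDEB, which enlarges lipid droplets and VLDL in hepatocytes, went from 29, 27.1 and 24.2 to 66.5, 68.7 and 61.7 CPM (log2 change 1.29 ± 0.12, adjusted p = 1.1e-04). PNPLA2, the lipase that opens triglyceride breakdown, went from 33.8, 31.9 and 36.8 to 73.2, 71 and 60.8 CPM (log2 change 1.0 ± 0.11, adjusted p = 2.5e-04). CIDEC, the adipocyte relative of CIDEB, went from 36.6, 41.2 and 30.3 to 71.3, 67.9 and 65.3 CPM (log2 change 0.92 ± 0.12, adjusted p = 0.0013). All 3 genes were about doubled in each Ad-K458R library, and genes that build droplets and a gene that empties them rose side by side. Fatty acid oxidation and ketogenesis had 7 of 33 tested members higher (21.2%, median 0.14), with none lower and 4 of the higher ones stable. ACAA1, the last enzyme of the peroxisomal chain, went from 117, 123 and 131 to 168, 163 and 165 CPM (log2 change 0.42 ± 0.06, adjusted p = 0.0029). ACSM2A and ACSM2B, medium-chain acyl-CoA synthetases, had log2 changes of 1.52 ± 0.22 and 1.34 ± 0.14. They are near-identical neighbours, so the split of reads between them is uncertain. Apolipoproteins and lipoprotein assembly had 4 of 19 tested members higher (21.1%, median 0.21) of which APOA4 alone was stable. APOA1, the main protein of HDL, stood at 817, 846 and 869.7 CPM with Ad-GFP and 1093, 1106 and 1003 CPM with Ad-K458R. Its groups did not overlap, but its call (adjusted p = 0.047) was lost without any 1 of the 6 libraries (adjusted p = 0.062 to 0.17). Cholesterol and fatty acid synthesis stood apart from these lists, with 1 of 29 tested members higher (DHCR7), 1 lower (ACACA) and a median of -0.09. At an unadjusted p under 0.05 (edgeR), 1 member was higher and 7 were lower. ACACA, which makes malonyl-CoA, had a log2 change of -0.22 ± 0.05, a call lost without any 1 of the 6 libraries (adjusted p = 0.13 to 0.17).

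Promoter sequences were read to set the binding letters of HNF4A beside stable genes that hold them. RefSeq windows on GRCh38.p14 from 250 bases before to 50 after a start were found for 393 of the 555 higher genes. The letters CAAAGTCCA, the form that HNF4A is known to prefer over other nuclear receptors, occurred on either strand in 7 of these 393 genes and in 129 of the 27305 genes with a window (0.472%). The letters CAAAGGTCA, a direct repeat with 1 base between its arms that other receptors also bind, occurred in 3 of the 393 and in 137 of the 27305 (0.502%). Neither of these motifs contains the other. The shorter CAAAGTC, which lies within CAAAGTCCA, occurred in 31 of the 393 and in 4.16% of the 27305. Among the 11342 tested genes with a window, the shares were 0.608% for CAAAGTCCA, 0.432% for CAAAGGTCA and 3.87% for CAAAGTC. With a window for 70.8% of the higher genes, under the 80% set for comparing shares, no comparison was made. Short stretches are shown for the stable genes with CAAAGTCCA or CAAAGGTCA wholly before the start, in the direction of the gene's transcription. Stable genes that hold only the shorter CAAAGTC there, such as CTNS, CDHR2 and IFIH1, are not shown. The match is in capitals, and TGGACTTTG and TGACCTTTG are the same letters read on the opposite strand.
CIDEB (chr14:24307978-24308078, minus strand): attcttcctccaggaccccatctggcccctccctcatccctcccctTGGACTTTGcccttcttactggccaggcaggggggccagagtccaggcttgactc
TMCC3 (chr12:94616006-94616106, minus strand): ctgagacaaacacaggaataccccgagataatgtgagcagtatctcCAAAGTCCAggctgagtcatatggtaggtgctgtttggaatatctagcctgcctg
ERICH4 (chr19:41442983-41443083, plus strand): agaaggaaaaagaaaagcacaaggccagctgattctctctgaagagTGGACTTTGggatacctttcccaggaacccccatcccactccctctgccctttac
RTP3 (chr3:46497849-46497949, plus strand): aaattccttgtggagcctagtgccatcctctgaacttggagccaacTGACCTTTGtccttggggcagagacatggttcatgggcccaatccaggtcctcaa
The matches lie 55, 59, 127 and 81 bases before the start. TMCC3, a membrane protein of the endoplasmic reticulum, went from 14.8, 12.4 and 14.4 to 36.5, 34.9 and 37.1 CPM (log2 change 1.38 ± 0.15, adjusted p = 3.2e-04). ERICH4 went from 5 control counts to 2.64, 2.12 and 1.73 CPM (adjusted p = 5.6e-04). RTP3, a liver-expressed protein of a family that carries taste and odorant receptors to the surface, had no control count and 3.52, 2.39 and 3.12 CPM, at least 62.8-fold higher (adjusted p = 4.0e-04). With the droplet gene CIDEB, genes holding these letters thus ranged from expressed at the outset to silent. A match is a description of the letters and not a measured binding site.

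Of 17 tested genes of gluconeogenesis and glycogen 6 were higher (35.3%, median 0.31) and none lower, and 3 of the 6 were stable. PCK1, the cytosolic enzyme that commits oxaloacetate to glucose, had 2 counts over the control libraries and 0.934, 0.858 and 0.669 CPM with Ad-K458R, a ratio of counts of 25.9 (exact 95% interval 6.8 to 220.3). FBP1, fructose-1,6-bisphosphatase, went from 3.58, 3.43 and 4.49 to 8.9, 7.36 and 11 CPM (log2 change 1.24 ± 0.20, adjusted p = 0.0042). GYS2, the liver glycogen synthase, went from 0.442, 0.326 and 0.338 to 1.26, 1.81 and 1.73 CPM (log2 change 2.09 ± 0.34, adjusted p = 0.0048). The 3 genes were low in the control and separated in every library. G6PC, which releases free glucose as the last step of its synthesis, had no control count and 6.54, 2.39 and 6.47 CPM, at least 107-fold higher. Replicate 2 was far below the other Ad-K458R libraries, and the call was lost without Ad-K458R replicate 1 (adjusted p = 0.05002). Of 31 tested genes of glycolysis and hypoxia 2 were higher, 1 of them stable.

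The urea cycle and amino acid breakdown had 6 of 37 tested members higher (16.2%, median 0.07), with none lower and 5 of the higher ones stable. BHMT, which remethylates homocysteine with betaine, went from 6.1, 5.66 and 4.54 to 21.7, 22.2 and 22.6 CPM (log2 change 2.03 ± 0.17, adjusted p = 6.4e-05). ASS1, argininosuccinate synthase, went from 56.3, 50.3 and 52.5 to 117, 122 and 111 CPM (log2 change 1.14 ± 0.11, adjusted p = 1.9e-04). KYNU, kynureninase of tryptophan breakdown, went from 11, 10.9 and 12.5 to 23.9, 22.8 and 23.2 CPM (log2 change 1.02 ± 0.09, adjusted p = 1.1e-04). Replicates of each group were close together in these genes, and every Ad-K458R library was above every control library. With HPD for tyrosine and PRODH2 for hydroxyproline (log2 change 2.21 ± 0.25), the stable members cover different amino acids. At an unadjusted p under 0.05, 11 members of the list were higher and 2 lower.

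Bile acid synthesis and transport had 5 of 20 tested members higher (25%, median 0.27), with none lower and 3 of the higher ones stable. CYP8B1, the sterol 12-hydroxylase that sets the share of cholic acid, had no control count and 2.42, 2.48 and 2.34 CPM, at least 50.3-fold higher (adjusted p = 3.0e-04). BAAT, which conjugates bile acids to glycine and taurine, went from 7.34, 9.3 and 10.2 to 39.4, 33 and 38 CPM (log2 change 2.04 ± 0.16, adjusted p = 3.2e-05). ABCB11, the bile salt export pump, went from 2.3, 1.36 and 2.37 to 5.88, 5.51 and 5.24 CPM (log2 change 1.45 ± 0.21, adjusted p = 0.0026). A synthetic enzyme, a conjugating enzyme and a canalicular exporter were thus higher in all 3 Ad-K458R libraries than in any control library. In drug metabolism, cytochromes P450 of families 1 to 4 had 4 of 20 tested members higher (20.0%), CYP1A2 and CYP4F12 (log2 change 0.83 ± 0.12) stable, and phase II enzymes 5 of 41 (12.2%), 4 stable. GLYAT, which conjugates acyl-CoAs to glycine, had no control count and 1.04, 1.13 and 0.892 CPM, at least 21.3-fold higher. NAT2, the polymorphic drug acetyltransferase, went from 1.19, 0.925 and 1.21 to 3.24, 3.02 and 3.46 CPM (log2 change 1.53 ± 0.20, adjusted p = 0.001). UGT1A1, the bilirubin glucuronosyltransferase, and SULT1C2, a sulfotransferase, had log2 changes of 1.21 ± 0.21 and 0.84 ± 0.11. UGT1A1 shares its last exons with the other UGT1A genes, so its reads are uncertain. In each of these drug-metabolism genes the libraries of the groups did not overlap, as in every called gene.

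Genes of absorptive epithelium were also called. Structural genes of the brush border had 7 of 25 tested members higher (28.0%, median 0.19), with none lower and 4 of the higher ones stable. CDHR2, the protocadherin that links microvilli at their tips, went from 15, 11.6 and 14.4 to 45.3, 47.7 and 40.5 CPM (log2 change 1.70 ± 0.15, adjusted p = 1.1e-04). Its cytoplasmic partner ANKS4B went from 21.1, 19.7 and 20.8 to 31.4, 30.4 and 27.4 CPM (log2 change 0.53 ± 0.09, adjusted p = 0.0075). SLC9A3R1, the ezrin-binding scaffold NHERF1, went from 141, 141 and 139 to 179, 196 and 172 CPM (log2 change 0.38 ± 0.07, adjusted p = 0.01). The size of the change differed among them and was largest for CDHR2, while all stayed free of overlap, as did every called gene. Of the mucins and gut epithelium genes 2 of 21 tested were higher, MUC4 (from 0.166 to 1.82 CPM on average) stable. Of 24 brush border enzymes and transporters 3 were higher (12.5%), among them the glycerol channel AQP7, stable with 1.23 ± 0.20. Tight and adherens junction genes had 1 of 30 higher (3.33%), close to the share of all genes.

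Transporters gave 3 stable members of 13 tested anion exchangers of SLC4 and SLC26 (23.1%), 4 of 33 amino acid transporters, where 5 were higher in all (15.2%), and 2 of 34 ABC transporters, where 6 were higher in all (17.6%). SLC26A6, an exchanger of chloride, oxalate and bicarbonate at apical membranes, went from 43.5, 38.9 and 40.4 to 73.8, 72.4 and 75.7 CPM (log2 change 0.85 ± 0.10, adjusted p = 5.2e-04). SLC4A8, a sodium-driven bicarbonate exchanger, went from 0.398, 0.163 and 0.193 to 3.08, 4.24 and 5.35 CPM (log2 change 4.0 ± 0.39, adjusted p = 1.5e-04). Together with SLC4A1 these exchangers were higher in every Ad-K458R library. SLC3A1, the heavy subunit of cystine uptake in kidney and gut, went from 5.79, 5.87 and 5.61 to 14.1, 14.9 and 13.4 CPM (log2 change 1.30 ± 0.12, adjusted p = 9.2e-05). SLC6A12, a betaine and GABA transporter, went from 12.2, 8.38 and 11.4 to 24.5, 28.5 and 29 CPM (log2 change 1.36 ± 0.14, adjusted p = 1.9e-04). ABCB1, the drug efflux pump P-glycoprotein, went from 112, 116 and 112 to 151, 148 and 138 CPM (log2 change 0.36 ± 0.06, adjusted p = 0.0072). The rise of ABCB1 was the smallest of these and still larger than the spread between replicates. Organic ion transporters had 1 of 30 higher, SLC22A4 (0.457 and 4.75 CPM on average).

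**Figure D4:**
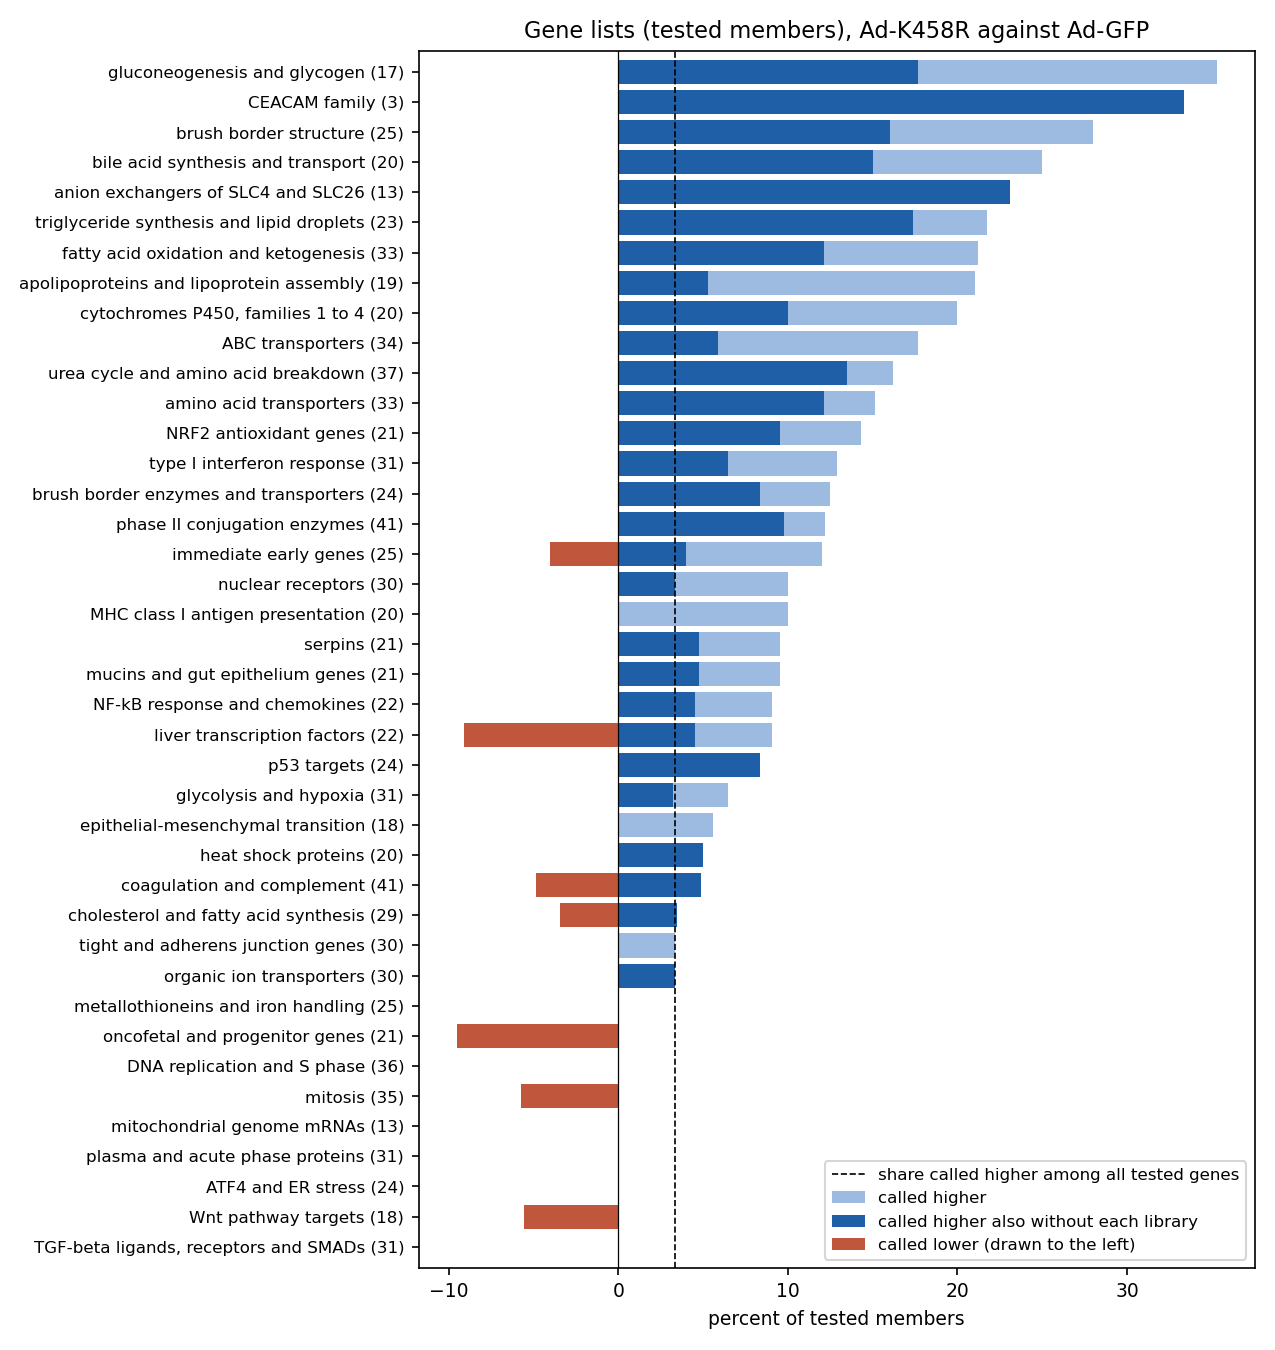
Percent of tested members called higher (light blue), called higher also without each library (dark blue) and called lower (red, drawn to the left of 0) for 40 gene lists, with the number tested in brackets. The dashed line marks 3.32%, the share of all tested genes, and gluconeogenesis reaches 35.3%, whereas lists of plasma proteins, replication and mitochondrial mRNAs have no bar.

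Lists of secreted plasma proteins differed in their calls. None of 31 plasma and acute phase proteins was called by edgeR, DESeq2 or limma-voom. At an unadjusted p under 0.05, 2 were higher and 5 lower, and the median was -0.11. ALB, albumin, stood at 3094, 3527 and 2668 CPM with Ad-GFP and 2738, 2434 and 2368 CPM with Ad-K458R (adjusted p = 0.17). The libraries of the groups overlapped, with Ad-K458R replicate 1 above Ad-GFP replicate 3. Coagulation and complement had 2 of 41 tested members higher (4.88%, beside 3.32% of all tested genes). Another 2 were lower, a larger share than the 0.234% of all tested genes. The higher ones were C4A and C4B, near-identical complement genes between which reads are uncertain, with log2 changes of 2.39 ± 0.37 and 4.43 ± 0.43. The lower ones were complement C5 and CPB2, which slows clot breakdown, with -0.25 ± 0.06 and -0.34 ± 0.07. The call of C5 was lost without any 1 of the 6 libraries (adjusted p = 0.062 to 0.18). That of CPB2 was lost without Ad-GFP replicate 1 or 2 or Ad-K458R replicate 1, 2 or 3 (adjusted p = 0.053 to 0.1). Of 21 tested serpins 2 were higher (9.52%), among them SERPINC1, antithrombin. It went from 22.4, 22.1 and 22.3 to 53.4, 47.1 and 46.1 CPM (log2 change 1.13 ± 0.15, adjusted p = 0.0015). Antithrombin was about doubled in each Ad-K458R library, with the control libraries almost identical to one another.

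Type I interferon genes had 4 of 31 tested members higher (12.9%, median 0.02), 2 of them stable. IFIH1, a cytosolic sensor of double-stranded RNA, went from 4.91, 4.46 and 4.69 to 11.5, 9.39 and 10.2 CPM (log2 change 1.14 ± 0.13, adjusted p = 4.1e-04). OAS1, which activates RNase L, went from 15.5, 14.3 and 13.2 to 25, 21.5 and 21.3 CPM (log2 change 0.66 ± 0.11, adjusted p = 0.0056). Both genes were higher in every Ad-K458R library, while the list's median lay at the median of all genes. All tumours received adenovirus. Against Ad-HNF4A the differences of IFIH1 and OAS1 were 0.30 and 0.26 on the log2 scale (adjusted p = 0.54 and 0.54). Of 25 immediate early genes, a list that also responds to handling, 3 were higher and 1 lower, with the AP-1 subunit FOSB stable at 2.08, 2.34 and 2.08 CPM and 5.77, 5.73 and 3.57 CPM. The p53 targets had 2 of 24 higher, both stable: GADD45B and PLK3, stress-induced growth regulators, with log2 changes of 0.50 ± 0.09 and 1.27 ± 0.15. The NRF2 list had 3 of 21 higher, HMOX1 (heme oxygenase) and OSGIN1 stable with 0.48 ± 0.08 and 0.41 ± 0.07. In the NF-kB list 2 of 22 were higher, IL32 stable with 0.46 ± 0.08, and in the heat shock list 1 of 20, HSPA6, with 1.66 ± 0.31. None of 24 ATF4 and ER stress genes was called by any of edgeR, DESeq2 and limma-voom, with 2 higher and 1 lower at an unadjusted p under 0.05.

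The lists tied to growth and to the fetal state showed small shifts. The mitosis, oncofetal and Wnt lists held more lower calls than the 0.234% of all tested genes, though none of these calls was stable. None of 36 genes of DNA replication and S phase was called by edgeR or limma-voom, and DESeq2 called 1 lower. At an unadjusted p under 0.05, 15 were lower and 0 higher, and the median log2 change was -0.16. Over all 16697 tested genes 818 were lower and 1523 higher at that threshold. FEN1, a flap endonuclease of replication, stood at 384, 382 and 376 CPM and 335, 345 and 336 CPM (adjusted p = 0.089). Its Ad-K458R libraries all lay below its Ad-GFP libraries, and the difference did not pass the adjusted threshold. Mitosis genes had 0 of 35 higher and 2 lower, with a median of -0.14. SKA3 of the kinetochore had a log2 change of -0.49 ± 0.10, a call lost without Ad-GFP replicate 2 or 3 or Ad-K458R replicate 1, 2 or 3 (adjusted p = 0.06 to 0.11). KIF20A, a kinesin of cell division, had -0.24 ± 0.06, a call lost without any 1 of the 6 libraries (adjusted p = 0.06 to 0.19). Of 21 oncofetal and progenitor genes 2 were lower. GPC3, glypican 3, a cell-surface proteoglycan of fetal liver and liver cancer, stood at 526, 542 and 509 CPM with Ad-GFP and 419, 440.7 and 421 CPM with Ad-K458R (log2 change -0.30 ± 0.06, adjusted p = 0.019). HMGA2, a fetal chromatin protein, stood at 207, 229 and 193 CPM and 159, 174 and 155 CPM (log2 change -0.37 ± 0.08, adjusted p = 0.023). Neither overlapped between the groups, which held for every called gene. Both calls were lost without Ad-GFP replicate 1 or 2 or Ad-K458R replicate 1 or 3 (adjusted p = 0.061 to 0.092 for GPC3 and 0.063 to 0.11 for HMGA2). The 13 mRNAs of the mitochondrial genome were all lower on average (median -0.21), 9 of them at an unadjusted p under 0.05, and none was called by edgeR, DESeq2 or limma-voom. Their share of counts was 6.05 to 6.54% with Ad-GFP and 5.18 to 5.78% with Ad-K458R, and its part in the other results was not tested. No member of the TGF-beta list was called by edgeR or limma-voom (31 tested, 3 higher and 3 lower unadjusted), and DESeq2 called 1 higher and 1 lower. Of 18 Wnt targets 1 was lower (TBX3, given above), of 18 genes of epithelial-mesenchymal transition 1 was higher (SNAI1, log2 change 0.82 ± 0.15, lost without Ad-GFP replicate 2 or 3 or Ad-K458R replicate 1 or 2 (adjusted p = 0.051 to 0.063)), and of 20 genes of MHC class I presentation 2 were higher, neither stable. HLA-C had a log2 change of 1.13 ± 0.22, a call lost without Ad-GFP replicate 1 or 2 (adjusted p = 0.083). Of 13 tested HLA genes, a family picked after the values had been seen, 6 were higher (46.2%). HLA-DPB1, HLA-H, HLA-J and HLA-L were the 4 stable ones. HLA genes are so alike that the split of reads between them is uncertain.

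The stable falls were of 4 genes, none of them in a list. RBMS2, an RNA-binding protein, stood at 104, 94.4 and 102 CPM with Ad-GFP, 24.6, 27.9 and 23.4 CPM with Ad-HNF4A and 24.6, 23.5 and 26.7 CPM with Ad-K458R. It was strongly reduced in all 6 libraries of the HNF4A vectors (log2 change with Ad-K458R -2.01 ± 0.09, adjusted p = 5.7e-07). SP3, a zinc-finger transcription factor of GC boxes, stood at 145, 157 and 147 CPM, 128, 144 and 135 CPM and 88, 99.8 and 97.5 CPM in the same order of groups. Its Ad-K458R libraries lay below all others (log2 change -0.66 ± 0.07 against Ad-GFP, adjusted p = 2.9e-04), and the difference from Ad-HNF4A was -0.52 (adjusted p = 0.093), which did not pass. PSMD11, a subunit of the proteasome lid, stood at 284, 275 and 272 CPM with Ad-GFP and 229, 214 and 224 CPM with Ad-K458R (log2 change -0.32 ± 0.05, adjusted p = 0.0072). The fall of PSMD11 was small and free of overlap. ARL2-SNX15, a readthrough gene that shares exons with ARL2 and SNX15, stood at 1.5, 0.598 and 1.26 CPM with Ad-GFP and had no count in the libraries of either HNF4A vector. The sources used here do not say how its reads were assigned between the 3 genes. Falls that were not stable were mostly small. MBNL3, an RNA splicing regulator, had a log2 change of -0.30 ± 0.06, lost without Ad-GFP replicate 1 or 2 or Ad-K458R replicate 1 or 3 (adjusted p = 0.075 to 0.1). PRAME, a cancer-testis antigen, had -0.43 ± 0.09, lost without Ad-GFP replicate 1, 2 or 3 or Ad-K458R replicate 1 or 3 (adjusted p = 0.053 to 0.1). TMPO, a protein of the nuclear lamina, had -0.26 ± 0.06, lost without Ad-GFP replicate 1, 2 or 3 or Ad-K458R replicate 1 or 2 (adjusted p = 0.057 to 0.14). The clone-named AP002414.2 fell by more, from 2.79 to 0.636 CPM on average, lost without Ad-GFP replicate 1 or 3 or Ad-K458R replicate 1 or 3 (adjusted p = 0.072 to 0.1).

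In the direct comparison of Ad-K458R with Ad-HNF4A 2 of 16697 genes were called (0.012%), against 1460 at an unadjusted p under 0.05, and neither was among the 594 genes called against Ad-GFP. The number depended on the libraries and the tool. Without Ad-HNF4A replicate 3, 11 genes were higher with Ad-K458R, without Ad-K458R replicate 3, 5 were lower, and DESeq2 called 46 higher and 14 lower. Both genes named next stayed called in each of these. TGFBR1, a kinase receptor for TGF-beta, stood at 22.2, 24.9 and 24 CPM with Ad-GFP, 45.8, 49 and 49.1 CPM with Ad-HNF4A and 23.3, 22.3 and 23.9 CPM with Ad-K458R. The Ad-K458R libraries lay among the Ad-GFP libraries and the Ad-HNF4A libraries were about double (log2 difference between the vectors -1.05 ± 0.08 SE, adjusted p = 7.3e-04; log2 change against Ad-GFP -0.03 ± 0.08, adjusted p = 0.91). TMEM30A, a subunit of phospholipid flippases, stood at 217, 224 and 219 CPM, 128, 145 and 130.0 CPM and 208, 210.5 and 212 CPM in the same order. Here the Ad-HNF4A libraries were low, and the Ad-K458R libraries came close to the control (log2 difference between the vectors 0.64 ± 0.06, adjusted p = 0.0023; against Ad-GFP -0.07 ± 0.06, adjusted p = 0.68). Among genes called against Ad-GFP, the 5 with the smallest p between the vectors were SP3, CEACAM20, CYP1A1, LAMP3 and BAAT, and none passed. CEACAM20 stood at 1.57, 1.92 and 2.98 CPM with Ad-HNF4A, below every Ad-K458R library (log2 difference 1.89, adjusted p = 0.11). LAMP3, a lysosomal membrane protein, stood at 4.46, 4.95 and 4.59 CPM with Ad-GFP, 5.14, 4.82 and 4.95 CPM with Ad-HNF4A and 9.89, 8.53 and 7.75 CPM with Ad-K458R (log2 difference between the vectors 0.81, adjusted p = 0.19). BAAT stood at 17.3, 18.9 and 24.2 CPM with Ad-HNF4A, between the other groups (log2 difference 0.87, adjusted p = 0.19). HNF4A itself stood at 3699.8, 3507 and 5391 CPM with Ad-HNF4A, and its replicate 3 reached the Ad-K458R range (log2 difference 0.34, adjusted p = 0.59). The comparisons of each vector with Ad-GFP share the 3 control libraries, so their values are given side by side only. APOA4 had log2 changes of 3.44 ± 0.15 with Ad-K458R and 2.88 ± 0.14 with Ad-HNF4A, HPD 3.09 ± 0.12 and 2.80 ± 0.12, and AKAP12 0.93 ± 0.15 and 0.36 ± 0.15.

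**Figure D5:**
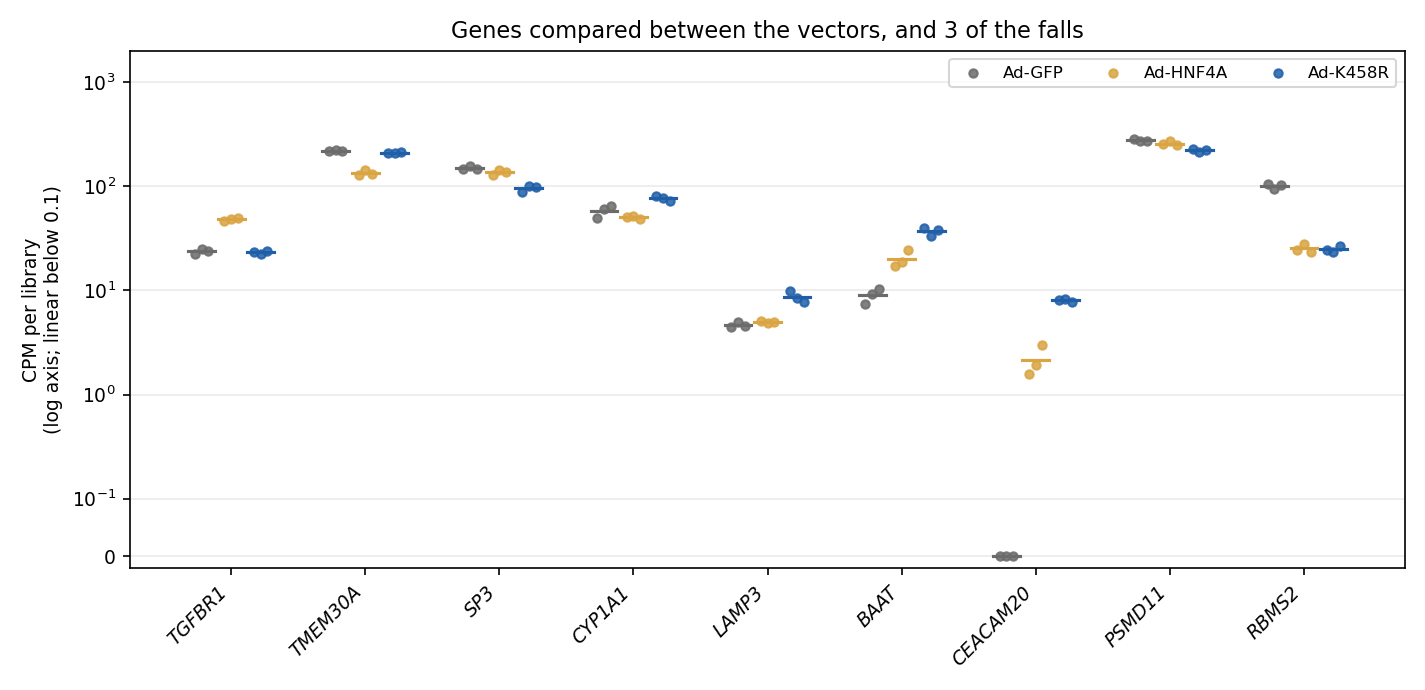
CPM in each library (points; log axis above 0.1, linear below) and group means (bars) in the 3 groups, for TGFBR1 and TMEM30A, for 5 genes with the smallest p between the vectors among those called against Ad-GFP, and for PSMD11 and RBMS2. The Ad-HNF4A libraries stand apart from both other groups for TGFBR1 and TMEM30A, while RBMS2 is low with both HNF4A vectors.

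Markers of other cell types were read beside these results, since host cells of the mouse and tumour cells share the tissue and the sources used here do not say how mouse reads were treated. In bulk tumour RNA, more cells of a type and more RNA per cell cannot be told apart. The labelled cell type was checked against its markers. All 11 tested hepatocyte and hepatoma genes, AFP and ALB among them, were expressed and summed to 31355 to 32393 CPM with Ad-GFP and 29358 to 29917 CPM with Ad-K458R. Of the macrophage list 5 of 9 tested members were higher, 4 of them stable (CSF1R, CD68, LAPTM5 and CTSS), and the summed level of the whole list was 18.8 to 22.4 CPM with Ad-GFP and 42.5 to 45.4 CPM with Ad-K458R. SPI1, the defining factor of the myeloid lineage, had no count in any library, C1QA and C1QB had none in the Ad-GFP or Ad-K458R libraries, and PTPRC, the common leukocyte antigen, had 22 and 31 counts in these groups. TYROBP, an adaptor of myeloid receptors too low to be tested, had 0 and 26 counts, and CD163, also too low, had 0 and 7. CD14, AIF1, ITGAM and PTPRC were tested and not called. FCER1G was the fifth higher member, and its call was lost without Ad-GFP replicate 1, 2 or 3 or Ad-K458R replicate 1 or 3 (adjusted p = 0.058 to 0.1). CD68 and CTSS, both lysosomal proteins, accounted for most of the sum. CSF1R had 1 and 36 counts with Ad-GFP and Ad-K458R, and LAPTM5 had 6 and 65. CD68 stood at 13.1, 13.3 and 10.8 CPM with Ad-GFP and 25.3, 24.8 and 24.4 CPM with Ad-K458R, with every Ad-K458R library above every control library. Of 3 tested neutrophil genes S100A9 and LTF were higher (log2 changes 1.48 ± 0.19 and 4.73 ± 0.56), and CSF3R was not called (-0.09 ± 0.33). Of those too low to be tested, S100A8 had 21 and 19 counts with Ad-GFP and Ad-K458R, LCN2 8 and 14, and MPO 0 and 4. ELANE and CXCR2 were at 0. The whole list of 8 summed to 7.78 to 9.86 CPM and 20.1 to 24.1 CPM. Of the B and plasma cell list (0.145 to 0.272 CPM against 1.43 to 2.01 CPM) CD79A was tested and higher (5.38 ± 0.51), with MS4A1 and MZB1 at 0. The 8 endothelial genes summed to 56.7 to 59.9 CPM against 59.2 to 68.2 CPM, and of the 3 tested VWF was higher (2.57 ± 0.44). PECAM1 and EGFL7 were expressed at a higher level and not called (0.08 ± 0.09 and 0.03 ± 0.14). Of those too low to be tested, TIE1 had 2 and 17 counts with Ad-GFP and Ad-K458R, ENG 3 and 1, CDH5 1 and 3, and TEK 1 and 1. KDR was at 0. The 11 fibroblast genes summed to 146 to 170.5 CPM against 174 to 187 CPM, and of the 8 tested COL6A1 was higher (1.19 ± 0.17), while COL1A2, COL3A1 and LUM were expressed and not called. The 6 adipocyte genes summed to 30.7 to 41.4 CPM against 65.8 to 72.1 CPM, and of the 2 tested CIDEC was higher, with ADIPOQ, LEP and FABP4 at 0. SLC4A1 was the 1 erythroid gene tested, and HBA1, ALAS2 and AHSP were at 0 in all 9 libraries. The whole list of 8 erythroid genes summed to 0 to 0.109 CPM against 7.90 to 9.51 CPM. EPB42, of the red cell membrane skeleton and too low to be tested, had 0 counts with Ad-GFP, 2 with Ad-HNF4A and 9 with Ad-K458R. No T and NK marker had enough counts to be tested (0.870 to 1.01 CPM against 1.0 to 1.26 CPM for the list). Within it PRF1, perforin, had 0 counts with Ad-GFP, 35 with Ad-HNF4A and 23 with Ad-K458R, whereas CD8A had 34, 25 and 20. Of 5 keratinocyte genes and 1 skeletal muscle gene, 0 were called by edgeR, DESeq2 or limma-voom and 0 had an unadjusted p under 0.05. The part of these cell types in the other results was not tested.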

How the data were processed

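Messenger RNA of Huh-7 xenografts, enriched with oligo(dT) beads, was sequenced in 9 libraries, 3 per vector, with the Ad-GFP tumours as controls. The authors deposited raw counts and FPKM per gene in 1 table, per the file headers. Trimmomatic and the mouse build mm10 are listed in the submitters' processing notes, while the table holds human gene identifiers. Which aligner and counting program were used, and how mouse reads were treated: not given in the sources used here.

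From the counts, edgeR 4.0.16 (R 4.3.3) fitted all 9 libraries with 1 term per group (TMM scaling, quasi-likelihood test with robust spread, two-sided, Benjamini-Hochberg adjustment) after its filter on low counts left 16697 of 50868 genes. Genes were called at an adjusted p under 0.05. Intervals for ratios of counts are exact at 95%, and the floor for genes without control counts is 3 counts over the control group. The script was tested on simulated data. Alternatives were other scalings, other filters, DESeq2 1.42.0, limma 3.58.1 with voom, log2(FPKM + 1) and log2(FPKM + 0.1) from the deposited FPKM, 6 libraries only, a replicate block, a fold limit of 1.5 and leaving out each library.

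The rule for named genes took HNF4A, stable higher genes (15 by fold and 15 by level, split at 1 CPM in the control, and 10 by gain), the stable lower genes with further lower genes by p up to 15, up to 4 called members per list (2 where none was called) and the genes that differed most between the vectors. Not all of these are printed. A few others were named after their values had been seen. The 40 gene lists, 11 marker lists and members were chosen with earlier results of these data known.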

Additional observations from a re-analysis of the deposited data

Results flagged for a closer look

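TGFBR1, a kinase receptor for TGF-beta, and TMEM30A, a flippase subunit, differed between the 2 HNF4A vectors in the test of that difference. The log2 difference, Ad-K458R minus Ad-HNF4A, was -1.05 for TGFBR1 and 0.64 for TMEM30A (edgeR, adjusted p = 7.3e-04 and 0.0023). In both genes the Ad-K458R libraries lay near the Ad-GFP libraries, and it was the Ad-HNF4A libraries that stood apart.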

How the results depend on the processing

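The 332 stable higher genes were also called with RLE, upper quartile and total-count scaling, without a filter, with DESeq2 and limma-voom, with 6 libraries only and with the replicate block, 329 of them on log2(FPKM + 0.1) and 315 on log2(FPKM + 1). A fold limit of 1.5 left 263 higher and 2 lower genes. The lower genes numbered 20 with library totals, 87 with DESeq2, 15 on log2(FPKM + 1) and 16 on log2(FPKM + 0.1), and 10 to 20 when 1 library was left out. The replicate block gave 462 higher and 15 lower genes. Same-numbered libraries did not deviate together (correlations -0.022, 0.0075 and -0.022, against -0.007 to 0.028 for other pairs), and not every library correlated best with its own number. Such correlations cannot show whether same-numbered tumours shared an animal or a batch, which the labels do not say. Between the vectors the higher and lower genes numbered 7 and 2 without a filter, 46 and 14 with DESeq2, 6 and 3 with 6 libraries and 0 and 0 with the fold limit. The higher genes alone moved to 2 with limma-voom, 3 on log2(FPKM + 1) and 2 on log2(FPKM + 0.1). Leaving out 1 library gave 1 to 11 higher and 1 to 5 lower. Against Ad-GFP, where neither was called, the ACTA1 log2 fold change ranged from -0.5711 to 0.0103 when 1 library was left out (above 0 without Ad-K458R replicate 2), and the TGFBR1 log2 fold change from -0.0813 to 0.0033 (above 0 without Ad-GFP replicate 2). Of 2462 values of the 137 named called genes over 18 settings, 2112 kept the call, 350 lost it and 0 reversed. The causes were not tested. Depth limits genes under 1 CPM, where single counts make up the control level.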

Other observations

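Beyond the lists, several gene families held more than 1 higher member. They were picked after the values had been seen, so the counts describe these families only. Among all tested genes 3.32% were higher. Of 62 tested lysosomal enzymes and membrane proteins 14 were higher (22.6%), 12 of them stable, and 1 was lower. CTNS, the exporter of cystine from the lysosome, went from 22.5, 23.5 and 22.7 to 56.8, 48.2 and 48.4 CPM (log2 change 1.16 ± 0.09, adjusted p = 2.9e-05, edgeR). ASAH1, acid ceramidase, went from 102, 105 and 102 to 143, 138 and 140.4 CPM (log2 change 0.45 ± 0.07, adjusted p = 0.0042). In both genes every Ad-K458R library stood above every Ad-GFP library. CTSC, cathepsin C, was the lower member, with -0.23 ± 0.05, lost without any 1 of the 6 libraries (adjusted p = 0.08 to 0.17). Of the 12 tested P450 genes outside families 1 to 4, 4 were higher (33.3%) and stable, most of them enzymes of steroid synthesis. CYP17A1, which makes androgen precursors, went from 0.486, 0.0544 and 0.145 to 5.44, 4.06 and 4.18 CPM, and CYP19A1, aromatase, from 2.74, 3.15 and 3.24 to 14.2, 12.5 and 13.3 CPM. With CYP11A1 and CYP8B1 these were the 4 members.

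Genes of striated muscle contraction and its calcium store had 8 of 15 tested members higher (53.3%), 5 of them stable, while ACTA1 of the skeletal muscle markers was not called. MYH6, the atrial myosin heavy chain, had no control count and 2.09, 3.93 and 3.35 CPM, at least 65.1-fold higher. TNNC1, slow troponin C, went from 0.265, 0 and 0.29 to 4.23, 3.16 and 3.18 CPM, and RYR1, the calcium release channel, from 0.0644 to 3.17 CPM on average. Of 30 potassium channel subunits 6 were higher (20.0%), 5 of them stable. Of 29 collagens 5 were higher (17.2%), all stable, and COL16A1 went from 0.532 to 2.99 CPM on average. Of 7 aquaporins 3 were higher (42.9%), 2 of them stable. Homeobox genes had a smaller share, with 7 of 91 higher (7.69%), 4 of them stable, and a median log2 change of 0.01. Among the stable ones were LHX1 with 0.0322 and 1.0 CPM and DMBX1 with no control count and 1.1 CPM. The placental and germ cell alkaline phosphatases ALPP and ALPG had log2 changes of 6.56 ± 0.61 and 3.04 ± 0.47, but are near-identical, so the split of reads is uncertain.

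By gene type, 511 of 13497 protein-coding genes were higher (3.79%), 25 of 1689 long noncoding genes (1.48%) and 18 of 1293 pseudogenes (1.39%). Among all higher genes 89 lay next to another higher gene, counted along the tested genes of a chromosome, in 43 runs. No number to set beside this was worked out, so clustering was not tested. The runs include near-identical or overlapping neighbours such as ACSM2A and ACSM2B, ALPP and ALPG, and HNF4A and HNF4A-AS1. There were 3 runs of 3 genes: DMBX1, MKNK1 and MOB3C on chromosome 1, TBX10, ACY3 and ALDH3B2 on chromosome 11, and PRODH2, NPHS1 and KIRREL2 on chromosome 19. How far reads that run from one gene into the next enter these runs was not tested.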
